A study of Mus musculus with 2 samples.

Results

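The primitive streak and caudal mesoderm factors are 10 transcription factor genes, T, Mixl1, Eomes, Tbx6, Msgn1, Cdx1, Cdx2, Cdx4, Gsc and Noto. They were taken by gene symbol from the 45777 genes of the mouse expression table, and all 10 were present. The table holds 1 library of polyA RNA from an E14 teratoma and 1 from an E14-Sox2TA/WT teratoma, called the mutant library. E14 is a wild-type mouse embryonic stem cell (ESC) line. E14-Sox2TA/WT cells derive from E14 by clonal selection after CRISPR/Cas9 editing and carry alanine in place of a threonine on 1 allele of Sox2, the other allele being wild type. Both kinds of cells were injected under the skin of BALB/c-nu mice, which lack mature T cells but keep other host cells, and teratomas were harvested 14 days later. Host and graft are both mouse, so their reads were not separated, and how many tumours or clones entered a library is not given in the sources used here. With 1 library per group there is no replicate check, and every difference compares these 2 libraries, not the conditions.

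In the gastrulating embryo, T (Brachyury), Eomes and Mixl1 mark the primitive streak, through which epiblast cells leave to form mesoderm and endoderm under Nodal, Wnt and FGF signals. Gsc and Noto mark the organizer, the node and the notochord. Tbx6 and Msgn1 direct presomitic mesoderm, and the caudal genes Cdx1, Cdx2 and Cdx4 pattern the posterior body and activate trunk and tail Hox genes. Several act elsewhere too, with Cdx1 and Cdx2 in intestinal epithelium, Cdx2 and Eomes in trophoblast, Eomes in natural killer (NK) cells and in intermediate progenitors of the cortex, and T and Noto in the notochord. A teratoma is a tumour in which injected ESCs form tissues of all germ layers.

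The libraries held 50529171 (E14) and 49030281 (mutant) reads on genes. Levels are given as TPM, a share of all transcripts that the authors scaled by transcript length and library, so that genes can be compared with each other. Deposited FPKM is also scaled by length and by the reads of the library, but not to a common sum. Its ratio exceeded the ratio of TPM by 0.20 on the log2 scale for every gene. Mitochondrial transcripts took 5.17% and 9.70% of the TPM. Sox2, the edited gene, stood at a TPM of 246 and 130, or 1.89-fold lower (1.84 to 1.94) in the mutant library. Intervals of ratios are 95% Clopper-Pearson and those of single levels 95% Poisson, both made from reads, and cover counting error only, as do limits for a count of 0, taken as 3 reads. In these bulk libraries fewer cells of a type and less RNA per cell cannot be told apart.

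The 250 bases before the annotated start are shown for T, Noto and Cdx2, which had the highest ratios or bounds among members with a promoter in the RefSeq table (GRCm38.p6), and for Cdx4 as the second Cdx gene there. Capitals mark motif matches, and the strand of the gene is printed 5′ to 3′. The T sequence lies at chr17:8434173-8434422 on the plus strand, with a CDX site in capitals. The Noto sequence lies at chr6:85423636-85423885 on the plus strand and holds none of the motifs searched. The Cdx2 sequence lies at chr5:147307250-147307499 on the minus strand and the Cdx4 sequence at chrX:103321148-103321397 on the plus strand, each with an octamer of POU factors in capitals.
T: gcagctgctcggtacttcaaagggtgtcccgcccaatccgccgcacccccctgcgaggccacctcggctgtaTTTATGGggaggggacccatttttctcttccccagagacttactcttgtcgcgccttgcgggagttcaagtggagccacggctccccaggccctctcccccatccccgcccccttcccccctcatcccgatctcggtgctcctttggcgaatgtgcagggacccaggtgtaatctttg
Noto: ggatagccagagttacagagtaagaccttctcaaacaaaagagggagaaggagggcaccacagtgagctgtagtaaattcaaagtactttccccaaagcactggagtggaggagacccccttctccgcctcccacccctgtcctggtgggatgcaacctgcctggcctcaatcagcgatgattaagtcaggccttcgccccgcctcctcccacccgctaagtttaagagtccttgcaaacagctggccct
Cdx2: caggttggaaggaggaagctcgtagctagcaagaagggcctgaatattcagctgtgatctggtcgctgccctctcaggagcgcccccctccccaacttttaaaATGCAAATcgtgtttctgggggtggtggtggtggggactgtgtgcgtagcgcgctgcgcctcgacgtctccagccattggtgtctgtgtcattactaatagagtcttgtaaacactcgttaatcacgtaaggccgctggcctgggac
Cdx4: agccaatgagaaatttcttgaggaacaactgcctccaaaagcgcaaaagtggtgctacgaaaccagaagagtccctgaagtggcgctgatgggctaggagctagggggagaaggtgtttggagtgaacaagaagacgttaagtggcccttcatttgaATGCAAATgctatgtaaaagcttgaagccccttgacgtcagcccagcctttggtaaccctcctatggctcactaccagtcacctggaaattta

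Motifs were searched on both strands of windows of 300 bases, from 250 before to 50 after the start, in 8 member promoters and in 32851 promoters in all. The CDX site TTTATNG was in 2 of 8 members, T (first base at -178 from the start) and Tbx6 (at -44), and in 10.9% of all promoters. Octamer ATGCAAAT, a motif picked after the sequences had been read, was in Cdx2 (at -147) and Cdx4 (at -93), and in 1.74% of all promoters. Msgn1 held the SOX core ACAAAG and the TCF/LEF site ATCAAAG, found in 28.6% (with ACAATG counted as well) and 3.73% of promoters. The T-box site TCACACC (3.98%), the FOXH1 site AATCCACA (0.855%) and the Goosecoid site TAATCC (7.06%) were in 0 of the 8 windows. The T, Gsc and Cdx2 windows were rich in CpG, with 17, 25 and 18 CpG against a median of 7 over all promoters. A match is a description of letters and not a bound site.

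Together the 10 genes had 852 reads in E14 and 3833 in the mutant library, and their summed TPM was 16.0 and 67.1. Without T the sum went from 11.2 to 27.0. T, Noto, Cdx1 and Cdx2 were far higher in the mutant library, Eomes, Mixl1 and Cdx4 were moderately higher, Gsc was nearly level, Tbx6 was lower, and Msgn1 was hardly read. In E14 3 members had 0 reads and 4 reached a TPM of 1, whereas in the mutant library all 10 had reads and 7 reached a TPM of 1. The plot of levels by library shows this spread.

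**Figure D1:**
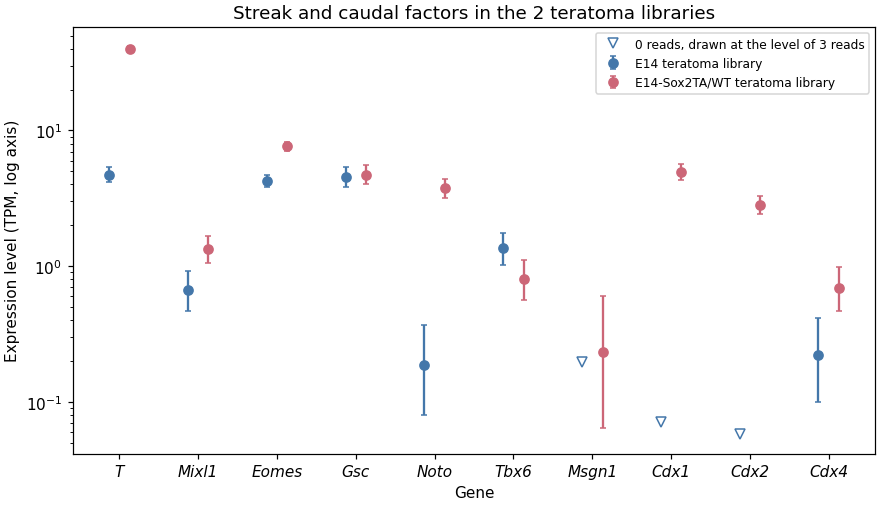
Expression level of each of the 10 genes (TPM, log axis) in the E14 (blue) and E14-Sox2TA/WT (red) teratoma library, with 95% Poisson counting intervals. Open triangles mark genes with 0 reads at the level that 3 reads would give. T stands apart at 40.1 in the mutant library, and Cdx1 and Cdx2 have 0 reads in E14.

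T encodes Brachyury, the T-box factor of the streak, tailbud and notochord, and lies on chromosome 17 from 8434423 to 8442496. It had 234 reads (TPM 4.73) in E14 and 2206 reads (TPM 40.1) in the mutant library. The TPM ratio was 8.48 (7.40 to 9.74), and T moved from place 12764 to place 3906 among all genes ordered by TPM. It was 29.7% of the members' summed TPM in E14 and 59.8% in the other. LOC115486424, a gene model that overlaps T by 106 bases at its start, had 2 and 18 reads.

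Eomes, the T-box partner of T in the early streak, had 379 and 762 reads on chromosome 9 (118478186 to 118486132). Its TPM went from 4.24 to 7.65, a ratio of 1.81 (1.59 to 2.05) that stayed under 2-fold on TPM but reached 2.07 on FPKM or on reads scaled by library total. Mixl1, a homeobox gene of nascent mesoderm and endoderm on chromosome 1 (180693043 to 180697034), had 37 and 83 reads. Its TPM was 0.666 and 1.34, and its ratio of 2.01 (1.35 to 3.04) was not resolved from 2-fold. The 3 streak genes were thus all higher, but unequally. The TPM of T was 1.12 times that of Eomes in E14 and 5.24 times in the other, a change of 4.69-fold in reads (3.89 to 5.65), whereas the ratio of Eomes to Mixl1 changed by 0.896-fold (0.580 to 1.37). These pairs were chosen after their values were seen.

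Among the organizer and notochord genes, Gsc and Noto went apart. Gsc, which encodes Goosecoid, lies on chromosome 12 (104471209 to 104473236) and had 129 and 150 reads. Its TPM was 4.55 and 4.74, and the interval of the ratio (0.816 to 1.33, around 1.04) held 1. Noto, which is needed for node and notochord formation, lies on chromosome 6 (85423886 to 85428877) and had 8 and 162 reads. Its TPM was 0.186 and 3.74, a ratio of 20.1 (9.98 to 47.4), and the width of that interval reflects the 8 reads of E14. Noto has 2 RefSeq transcripts in the table, and with the same TPM weight per read as the typical gene the ratio was 18.1.

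The presomitic mesoderm factors Tbx6 and Msgn1 stayed low in both libraries. Tbx6, on chromosome 7 (126781483 to 126785548), had 56 reads in E14 and 37 in the mutant library, with a TPM of 1.35 and 0.802. It was 1.69-fold lower (1.09 to 2.63), the only member with a lower value. Msgn1, a single-exon gene on chromosome 12 (11208382 to 11208948), had 0 and 4 reads. Its level in the mutant library was a TPM of 0.234 (0.0638 to 0.599), no ratio is given, and a difference was not detectable at this depth.

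The caudal genes were nearly silent in E14, where Cdx1, Cdx2 and Cdx4 together had 9 reads against 429 in the mutant library. Cdx1, on chromosome 18 (61018862 to 61036199), had 0 and 234 reads. Its TPM of 4.97 was 69.9-fold that of 3 reads in E14 (lower Clopper-Pearson limit of the ratio 56.4). Cdx2, on chromosome 5 (147300900 to 147307249), had 0 and 165 reads. Its TPM of 2.85 was 49.3-fold that of 3 reads in E14 (lower limit 39.6). In E14, 0 reads of Cdx1 and Cdx2 allow a TPM of up to 0.0711 and 0.0578. Cdx4, on the X chromosome (103321398 to 103330224), had 9 and 30 reads, with a TPM of 0.220 and 0.694 and a ratio of 3.16 (1.46 to 7.56). Cdx1 and Cdx2 were thus present only in the reads of 1 library, while Cdx4 stayed below a TPM of 1 in both.

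**Figure D2:**
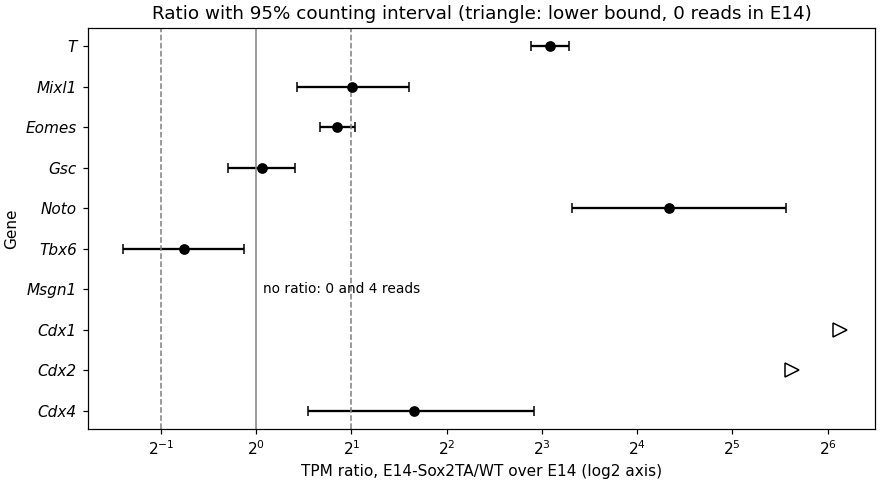
TPM ratio of each member, E14-Sox2TA/WT over E14 (log2 axis), with the 95% Clopper-Pearson counting interval. Open triangles set Cdx1 and Cdx2 against 3 reads in E14 and lie above their lower Clopper-Pearson limits of 56.4 and 39.6. Solid and dashed lines mark a ratio of 1 and 2-fold in either direction. Of the intervals drawn, only that of Gsc holds 1.

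The order of the members by TPM also changed. In E14 T, Gsc and Eomes led, and their counting intervals overlapped between neighbours in the order. Tbx6, Mixl1 and Cdx4 followed, each below the one before beyond counting error, while Cdx4 and Noto overlapped. In the mutant library T led Eomes, and Eomes led Cdx1, beyond counting error. Cdx1, Gsc, Noto and Cdx2 came next, with each pair of neighbours overlapping. Mixl1, Tbx6, Cdx4 and Msgn1 closed the order, again with overlapping neighbours.

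The rule of the study's methods, a fold change above 2 with a TPM reaching 10 in one or both libraries, could be met by T alone, since no other member reached that level. T was called higher, as were 10.8% of the 11578 genes tested, while 18.7% were called lower. T reached a TPM of 10 only in the mutant library, so the filter largely fixed its direction. Its call is a description and no support. At a TPM minimum of 1, 8 members could be counted and 5 of them (T, Mixl1, Noto, Cdx1 and Cdx2) were past 2-fold higher, against 19.3% of 18558 genes. None of the 8 was past 2-fold lower, against 18.9% of the genes. Mixl1, Noto, Cdx1 and Cdx2 passed this minimum only through the mutant library, so the filter largely fixed their direction, and the count is a description and no support. The whole counting interval lay above 2-fold for 4 of 9 members with at least 10 reads in 1 library (T, Noto, Cdx1 and Cdx2), against 20.7% of 23055 genes, and below 2-fold lower for 0 members, against 10.8% of genes. This interval was taken on reads scaled by library total. Noto, Cdx1, Cdx2 and Cdx4 reached 10 reads only in the mutant library, so this filter too largely fixed their direction. The interval count is likewise a description and no support. Having 0 reads in E14 and at least 10 in the other, as Cdx1 and Cdx2 did, was shared by 6.85% of the 23055 genes. The reverse pattern was shared by 0.989%. At 100 reads or more these patterns held 138 and 13 genes.

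The median difference in log2(TPM + 1) was 0.61 over the 10 members and 1.33 over the 8 that reached a TPM of 1, a value the same filter raises, beside -0.06 over all 18558 genes. With 1 added, differences of low genes are understated. On TPM ratios, with Cdx1 and Cdx2 set against 3 reads in E14 and Msgn1 left out, the median over 9 members was 3.16.

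**Figure D3:**
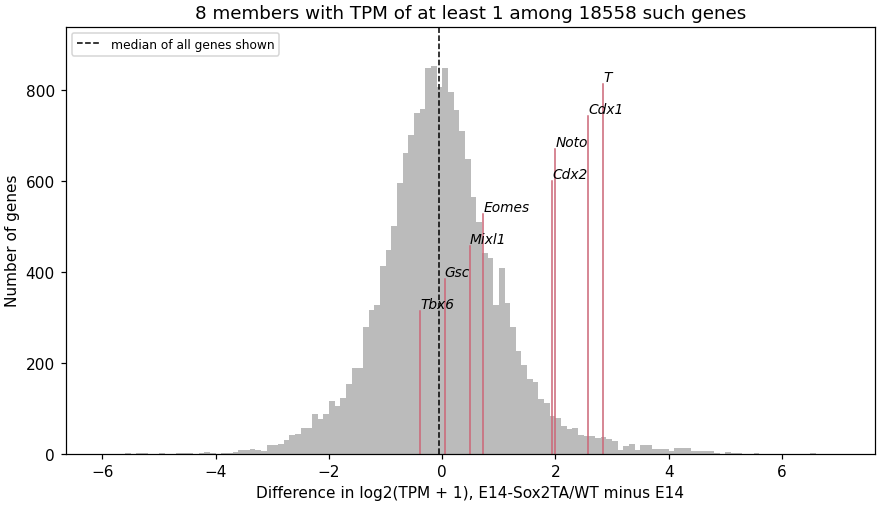
Histogram of the difference in log2(TPM + 1), E14-Sox2TA/WT minus E14, over the 18558 genes that reached a TPM of 1 in 1 library (number of genes on the y axis). Red lines mark 8 members, their heights serving only to separate the names; T, Cdx1, Noto and Cdx2 lie in the upper tail and Tbx6 lies just below the median of -0.06.

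The gene lists are described by their counts, beside the 19.3% and 18.9% of all genes past 2-fold higher and lower. Where a gene reached a TPM of 1 in only 1 library, the filter largely fixed its direction. The list counts and medians are thus a description and no support. Other genes of the streak were taken from a list of 13, of which 11 reached a TPM of 1. Of these, 7 were past 2-fold higher and 1 past 2-fold lower, with a median of 1.39. Nodal, the ligand that induces the streak, had a TPM of 3.01 in E14 and 38.9 in the mutant library, a ratio of 12.9 (11.0 to 15.4). Its co-receptor Tdgf1 (Cripto) went from 7.48 to 99.7, and Lefty2, a Nodal antagonist and target, from 18.4 to 83.5. ESCs also transcribe these 3 genes. The streak ligands Wnt3 (4.54 and 2.43) and Fgf8 (33.8 and 17.98) were lower, by 1.87-fold and 1.88-fold. Sp5, a direct target of Wnt signaling, was level at 13.6 and 13.2, and Lhx1 was 3.79-fold lower. Mesp1, a factor of nascent mesoderm, had 0 and 4 reads. The other 4 past 2-fold higher were Snai1, a repressor of E-cadherin in leaving cells (3.20 and 10.6), the apelin receptor gene Aplnr (4.73 and 13.99), the Wnt antagonist Dkk1 (9.08 and 25.5) and the Nodal and Wnt antagonist Cer1 (8.47 and 17.8).

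The tailbud and presomitic mesoderm list was divided. Among its 16 genes that reached a TPM of 1, 6 were past 2-fold higher and 7 past 2-fold lower, with a median of 0.25. Wnt8a, a ligand of the streak and tailbud, had a TPM of 0.571 and 6.42, a ratio of 11.3 (7.21 to 18.5), and the paraxial mesoderm gene Meox1 had 2.89 and 15.4. Wnt3a, Cyp26a1, Aldh1a2 and Tcf15 were the other 4 past 2-fold higher. The segmentation genes Lfng (60.2 and 20.9), Dll1 (34.0 and 9.51) and Dll3 (26.0 and 9.75) were lower, as was Pcdh8 (42.0 and 11.2). The other 3 past 2-fold lower were the somite gene Uncx (19.0 and 4.12), the segmentation gene Ripply2 (41 and 7 reads) and Fgf17 (4.36 and 2.12). Which cells gave the reads of these 7 lower genes, presomitic mesoderm or others, was not tested. The clock gene Hes7 (0.663 and 1.13) and Mesp2 (0.770 and 0.798) stayed low in both libraries, as did Tbx6 and Msgn1.

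The node and notochord list was near level as a whole. Of its 9 genes that reached a TPM of 1, 1 was past 2-fold higher and 1 past 2-fold lower, with a median of -0.06. Foxj1, a regulator of motile cilia, was at 61.8 and 58.7, Shh at 45.6 and 59.5, and Foxa2 at 35.3 and 57.2. Pkd1l1, which acts in left-right sensing at the node, was at 1.02 and 2.62, and Dand5, a Nodal antagonist of the node, at 15.1 and 3.91. Foxj1, Shh and Foxa2 are shared with ciliated epithelium, floor plate and endoderm.

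Cdx proteins act on posterior Hox genes. Most of the posterior Hox genes measured were higher in the mutant library, and a link to the Cdx values was not tested. Of 16 genes of Hox groups 9 to 13, 11 reached a TPM of 1, and 10 of these were past 2-fold higher with 0 lower. Except for Hoxd9 and Hoxd10 (1.10 and 1.39 in E14), those counted reached that level only in the mutant library. The filter thus largely fixed their direction. Of the 16, 7 had 0 reads in E14 and at least 10 in the mutant library. Hoxd13, the most posterior gene of its cluster, had 0 and 554 reads. Its TPM of 8.005 was 165-fold that of 3 reads in E14 (lower Clopper-Pearson limit of the ratio 134). Hoxa9 had a TPM of 0.114 and 4.56, and Hoxb9 of 0.491 and 5.78. Hoxc12 had 0 reads in both libraries.

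**Figure D4:**
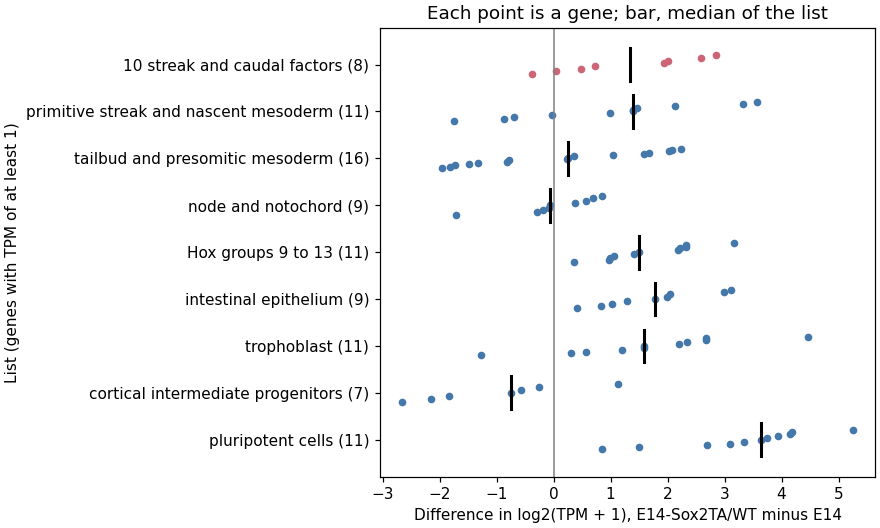
Difference in log2(TPM + 1), E14-Sox2TA/WT minus E14, for genes that reached a TPM of 1 in 1 library, by list. Each point is a gene, black bars are list medians, and numbers in brackets are genes shown. Lists of pluripotent cells (median 3.64), intestinal epithelium and trophoblast lie to the right, cortical intermediate progenitors to the left. For genes that reached a TPM of 1 in only 1 library, the filter largely fixed the direction.

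Markers of other cell types that use these factors differed between the libraries as well, higher on the whole for intestinal epithelium and trophoblast and lower for cortical intermediate progenitors. Their part in the members' values was not tested. In the intestinal epithelium list, 7 of 9 genes that reached a TPM of 1 were past 2-fold higher and 0 lower. Among them Vil1, Gpa33, Hnf4a, Fabp1 and Fabp2 reached it only in the mutant library, so the filter largely fixed their direction. The summed TPM of all 14 genes was 12.99 and 62.2. Lgals4 had a TPM of 1.33 and 17.6, and Gpa33, a surface antigen of intestinal cells, of 0.240 and 9.77. Tff3, a trefoil peptide of goblet cells, had 5.48 and 10.5, a ratio of 1.91 (1.40 to 2.64). Cdh17 (0.786 and 0.641), itself a known target of Cdx2, and Muc2 (0.756 and 0.938) did not follow. Isx and Fabp2 had 0 reads in E14 and 18 and 27 in the other.

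In the trophoblast list, 8 of 11 genes that reached a TPM of 1 were past 2-fold higher and 1 was past 2-fold lower. Among them Hand1, Tpbpa, Prl3d1, Prl2c2 and Esx1 reached it only in the mutant library, so the filter largely fixed their direction. The summed TPM of 13 genes was 59.9 and 242. Hand1 (0 and 207 reads), Tpbpa (0 and 56), Prl3d1 (0 and 85), Prl2c2 (0 and 125), Gcm1 (0 and 52) and Syna (0 and 15) were read only in the mutant library. Tpbpa marks the spongiotrophoblast, Prl3d1 giant cells, and Gcm1 and Syna the syncytiotrophoblast. Prl2c2 has near-identical copies that may share its reads. Rhox6 had a TPM of 2.07 and 66.9, Tfap2c of 2.26 and 19.7, and Krt7, also of other simple epithelia, of 42.2 and 128. Elf5, a defining factor of trophoblast stem cells along with Cdx2 and Eomes, was at 3.07 and 4.04, and Gata3 was 2.90-fold lower.

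All 11 genes of the pluripotent list were past 2-fold higher, with a summed TPM of 87.4 and 1910. The ratio of Fgf5, 2.01 (1.72 to 2.36), was not resolved from 2-fold. Fgf4 (0.584 and 15.1) reached a TPM of 1 only in the mutant library, so the filter largely fixed its direction. Pou5f1 had a TPM of 19.0 and 304, Nanog of 8.38 and 116, Dppa4 of 2.06 and 54.6, and Dppa5a of 29.1 and 1144. Pou5f1, Nanog and Dppa5a have pseudogenes that may share reads. Among the cortical intermediate progenitor genes, 3 of 7 were past 2-fold lower and 1 past 2-fold higher, with a median of -0.75. Insm1 had a TPM of 28.8 and 5.69, Emx2 of 9.51 and 0.668, Btg2 of 68.9 and 57.7 and Gadd45g of 62.1 and 36.4. NK cell genes were near 0 in both libraries, with a summed TPM of 0.766 and 3.81 over 9 genes, Klrb1c at 0 reads in both and Ncr1 at 0 and 18. By TPM in the mutant library the highest were Gzma (10 and 28 reads), Nkg7 (0 and 19) and Klrd1 (0 and 11).

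The genes around the members were read for comparison. The 3 nearest genes that reached a TPM of 1 on each side of each member, 60 genes in all, had a median difference of 0.01, with 8 past 2-fold higher and 15 past 2-fold lower. T lies between T2, 11695 bases away and level at 3.53 and 3.68, and Pde10a, 82691 bases away and lower at 8.88 and 3.003. Noto lies 3099 bases from Smyd5 (34.1 and 50.3) and 49202 from Rab11fip5 (16.2 and 9.74). Mixl1 stands between Lin9 (12.6 and 13.8) and Acbd3 (27.7 and 28.5), both near level. Eomes stands 31009 bases from the noncoding RNA gene Platr11, which had 5 and 198 reads and a ratio of 43.0, and 20064 bases from Golga4 (33.7 and 24.8). Gm33408, a model that overlaps Eomes by 547 bases, had 11 and 0 reads.

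Tbx6 is flanked within 1 kb by Ppp4c, 318 bases away (158 and 184), and Ypel3, 973 bases away (139 and 61.5). Msgn1 lies between Kcns3 (2.33 and 6.26) and Gen1 (5.17 and 8.91), and Gsc between Serpina3n (62.2 and 18.5) and Dicer1 (29.3 and 19.9). Cdx1 lies between Slc6a7, at 2.36 and 1.20, and Pdgfrb, at 15.7 and 17.1. The nearest genes to Cdx2 were Gm38751 (20 and 10 reads) and Gm6054 (13 and 31 reads). Cdx4 lies between Nap1l2, at 18.6 and 3.13, and Chic1, at 4.47 and 4.43, and the third gene beyond Chic1's side is Xist, at 1.65 and 5.50. Gsx1, which lies with Cdx2 and Pdx1 in the ParaHox cluster, went the other way from Cdx2, at 19.99 and 1.58.

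**Figure D5:**
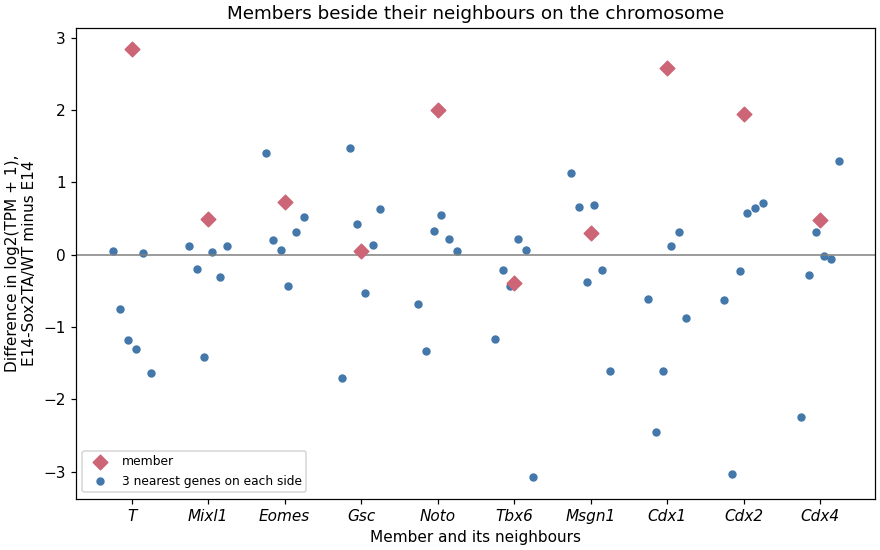
Difference in log2(TPM + 1), E14-Sox2TA/WT minus E14 (y axis), for each member (red diamond) and the 3 nearest genes that reached a TPM of 1 on each side (blue points). T, Mixl1, Noto, Cdx1 and Cdx2 stand above all 6 of their neighbours, while Tbx6, Gsc, Msgn1, Eomes and Cdx4 lie within the range of theirs.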

How the data were processed

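PolyA RNA libraries, 1 per group, were sequenced on a NovaSeq instrument. The submitters' processing notes name bcl2fastq 2.20.0, Trimmomatic, HISAT2 2.1.0 and StringTie 2.1.3b, without roles, and the file names mm10. The authors deposited read counts per gene (whole numbers, not normalized), FPKM and TPM for each library. Whether both mates of a pair were counted, and on which strand, is not given in the sources used here. If mates were counted singly, the intervals are too narrow.

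TPM ratios with Clopper-Pearson intervals of the counts were computed. A count of 0 was set to 3 reads where the other library had at least 10 reads, a minimum set after the 4 reads of Msgn1 were seen. The samples allow no test across libraries, so no p-value was computed. Identifiers were matched to the RefSeq table of GRCm38.p6 (45679 of 45777). The members and the gene lists were chosen with earlier results of these data known. Named were all members, Sox2, in each list the 3 most abundant genes and the 2 that differed most, the nearest genes beside each member, the 3 genes most like T and Cdx2, and some list genes added after their values were seen. Promoters came from RefSeq for 8 members, and protein sequences were not used here.

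Alternatives covered scaling (FPKM, library total, TMM, median of ratios, no mitochondrial genes), filters, folds and the pseudocount. The interval code was tested on simulated data. Software was R 4.3.3 with edgeR 4.0.16 (for TMM factors) and Python 3.11.15 with scipy 1.17.1, numpy 2.4.6, pandas 2.3.3 and matplotlib 3.10.9.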

Additional observations from a re-analysis of the deposited data

How the results depend on the processing

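No paired analysis was possible because each group holds 1 library, and neither could be left out. Of 194 alternative values of the main counts and medians, 175 stayed within 1.5 times the count or within the spread used, and 19 did not. T, which reached a TPM of 10 only in the mutant library, met the study's rule under every scaling and fold tried. The TPM minimum was always taken on the deposited TPM, so no other member could be called there. Without a filter 7 members passed 2-fold, where Cdx4 and Msgn1 could be counted. Requiring a TPM of 10 in each library left no member to count. On reads scaled by library total, the number of members whose counting interval lay beyond the fold was 7 at 1.5-fold. On the TPM ratio, the intervals of Mixl1 and Cdx4 began below 1.5, at 1.35 and 1.46. The 5 other scalings left 5 or 6 members past 2-fold higher at a TPM of at least 1, the sixth being Eomes. The members' median was 1.53 with a pseudocount of 0.1 and 1.33 over members that reached a TPM of 1. Depth limits Cdx1, Cdx2, Msgn1, Cdx4, Noto, Mixl1 and Tbx6, each with under 60 reads in E14.

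Requiring a TPM of at least 10 in 1 library left fewer genes to count. Past 2-fold higher were then 1 intestinal gene, 3 trophoblast genes and 0 genes each of the node and notochord, cortical progenitor, NK cell, Hox and other T-box lists. Past 2-fold lower were 0 trophoblast genes and 1 other ParaHox gene. Without a filter, 2 cortical progenitor, 6 NK cell and 5 other T-box genes were higher and 3 other T-box genes lower. The other T-box genes past 2-fold higher were 4 with FPKM and 4 with library totals. Of 54 alternative ratios of single members, 52 stayed within their counting interval, and Eomes on FPKM and on library totals did not. No ratio changed its direction. The scalings shift all genes by similar factors, so wide intervals could hardly be left. Cdx1 and Cdx2 have no upper limit that a value could pass. These counts thus show mainly that the scalings are alike. Giving genes at 0 reads 3 reads, and the same TPM weight per read, were alternatives chosen after seeing the data.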

Other observations

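Relatives of the members in the T-box and ParaHox families showed other patterns. Of 14 other T-box genes, 6 reached a TPM of 1, and 2 of these were past 2-fold higher and 0 lower. Tbx15, a factor of skeletal development, had a TPM of 1.30 and 3.998, a ratio of 3.08 (2.49 to 3.84). Tbx18 had 2.82 and 6.66, Tbx3 6.26 and 12.5, Tbx2 4.13 and 7.32, and Mga 20.7 and 16.2. Among those below a TPM of 1, Tbx4 (18 and 70 reads) and Tbx5 (4 and 14 reads) were higher, and Tbr1 (53 and 14 reads) and Tbx19 (28 and 4 reads) were lower. Of the other ParaHox genes, Gsx1 was 12.7-fold lower (10.01 to 16.2) and Gsx2 5.94-fold lower (3.74 to 9.85) in the mutant library, while Pdx1 had 5 and 6 reads. Gsx1 and Gsx2 act in the ventral forebrain, Pdx1 in pancreas and duodenum.

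The genes whose pair of levels came closest to that of T, by distance on log2(TPM + 1) over the 2 libraries, were Snora33 (5.18 and 40.0), Car3 (4.29 and 39.8) and Dppa3 (5.30 and 39.6). For Cdx2 they were Gm94, 1600025M17Rik and Ms4a10, each with 0 reads in E14 and 58, 42 and 78 in the other. A likeness over 2 libraries rests on 2 values per gene.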
